A study of Mus musculus with 10 samples.

Results

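Clec4f, Vsig4, Timd4, Marco, Cd5l, C1qa, C1qb, C1qc, Adgre1 and Csf1r, the Kupffer cell genes with the complement C1q trio, were followed in mouse liver RNA as 10 of the 27179 genes in the count table. They were chosen by name and matched by NCBI Gene number, and all 10 passed the filter on low counts that left 15226 genes for testing. The livers came from male C57BL/6 mice with floxed Lpcat3 alleles (Lpcat3f/f). Control mice carried no Cre, and LKO mice (Lpcat3f/f Albumin-Cre) carried Cre recombinase under the albumin promoter, which is active in hepatocytes, so the deletion is not aimed at the macrophages that express these genes. All mice of both groups had eaten a NASH diet, which produces steatohepatitis, for 12 weeks. Each group held 5 mice with 1 library each, and no ages are stated. Levels are given as CPM, the share of a library's counts, after TMM scaling, a correction for differences in library composition.

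Kupffer cells are the resident macrophages of the liver sinusoids, where they clear particles, microbes and dying cells from portal blood. They depend on the receptor CSF1R and its ligands CSF1 and IL-34, and on transcription factors that include PU.1, MAF family members, SPIC and the liver X receptor. C1q is the recognition molecule of the classical complement pathway, built from A, B and C chains encoded by C1qa, C1qb and C1qc, and in most tissues it is made by macrophages, whereas the later complement proteins come mainly from hepatocytes. In steatohepatitis, embryo-derived Kupffer cells are known to be partly replaced by macrophages of monocyte origin, which carry Adgre1, Csf1r and C1q but acquire Clec4f and Timd4 late or not at all.

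The 250 bases before the RefSeq start (build GRCm38.p6) were searched on both strands for 7 of the 10 genes. The motifs were the PU.1 core GAGGAA, the MAF half-site TGCTGA and the nuclear receptor half-site AGGTCA. C1qa, Adgre1 and Csf1r are not among the 7, so the motif shares given below do not cover these genes. No match overlapped another. The sequences of 5 genes are shown, to cover the roles described here: C1qb and C1qc as neighbours of 1 locus, Cd5l and Vsig4 as genes of mature Kupffer cells, and Timd4 as a marker of long-lived ones. Capitals mark the motifs as read on the strand of the gene, so a motif on the other strand appears as its reverse complement. C1qb is at chr4:136886201-136886450 (minus strand), and C1qc is at chr4:136893075-136893164 (minus strand), for which the 90 bases farthest upstream are given. Cd5l is at chr3:87357631-87357880 (plus strand), Vsig4 at chrX:96293439-96293688 (minus strand) and Timd4 at chr11:46810549-46810798 (plus strand).
C1qb: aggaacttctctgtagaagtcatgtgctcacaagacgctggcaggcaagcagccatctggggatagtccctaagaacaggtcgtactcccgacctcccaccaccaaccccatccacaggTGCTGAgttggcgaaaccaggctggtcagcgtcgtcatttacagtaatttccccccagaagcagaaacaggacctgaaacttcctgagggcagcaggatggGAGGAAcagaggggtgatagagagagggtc
C1qc: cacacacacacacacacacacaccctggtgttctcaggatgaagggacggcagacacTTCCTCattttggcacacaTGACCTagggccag
Cd5l: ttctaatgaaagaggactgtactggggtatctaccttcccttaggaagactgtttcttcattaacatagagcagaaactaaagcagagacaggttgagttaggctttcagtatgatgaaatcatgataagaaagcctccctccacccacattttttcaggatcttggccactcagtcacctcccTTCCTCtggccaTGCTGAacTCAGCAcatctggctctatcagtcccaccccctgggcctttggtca
Vsig4: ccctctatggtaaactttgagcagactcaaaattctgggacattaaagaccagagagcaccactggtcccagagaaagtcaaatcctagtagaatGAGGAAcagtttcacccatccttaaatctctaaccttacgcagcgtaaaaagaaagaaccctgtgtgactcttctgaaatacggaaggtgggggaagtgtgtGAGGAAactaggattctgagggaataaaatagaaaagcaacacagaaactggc
Timd4: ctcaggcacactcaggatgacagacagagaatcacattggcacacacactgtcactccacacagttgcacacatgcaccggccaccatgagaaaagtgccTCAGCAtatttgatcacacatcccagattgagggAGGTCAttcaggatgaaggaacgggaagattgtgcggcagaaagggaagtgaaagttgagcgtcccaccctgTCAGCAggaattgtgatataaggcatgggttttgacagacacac

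GAGGAA stood in the windows of Vsig4, Marco, Cd5l, C1qb and C1qc, which makes 5 of 7, and in 23.3% of all 32851 promoter windows of that length. TGCTGA stood in 4 of 7 (Clec4f, Timd4, Cd5l and C1qb) and in 16.1% of all windows. AGGTCA was found in 3 of 7 (Clec4f, Timd4 and C1qc) against 14.0% of all. Cd5l, a secreted scavenger protein also called AIM, held a pair of TGCTGA matches in opposite orientation, with first bases 54 and 46 bases before the start. Vsig4 held 2 PU.1 cores, at 155 and 53 bases. These are letter matches and not measured binding sites.

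The libraries held 26914124 (control 4) to 46727182 (control 5) counts, and Lpcat3 itself had means of 109 ± 13.3 and 31.3 ± 4.65 CPM in control and LKO (SD, n = 5), with no overlap. A principal component analysis placed control 4 (30.2) nearer to the LKO libraries (-8.03 to 82.3, LKO 3 highest) than to the other controls (-52.7 to -30.1) on its first axis, 56.8% of the variance. The titles carry a code whose meaning is not stated: A54 for control 1, LKO 1 and LKO 2, A55 for the other controls, and A67 for the other LKO libraries. A55 and A67 each hold 1 group, so there the code and the genotype cannot be told apart. Housing, litters and processing days are not stated.

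Of the 10 genes, 8 had a higher and 2 a lower fitted level in LKO (9 and 1 with scaling to total counts, where Clec4f stood at 0.20). The C1q genes, Adgre1, Cd5l and Csf1r were higher in LKO by 0.34 to 0.88 on the log2 scale and are called the C1q block here, a grouping made by their values that was not tested, and for each of these 6 all 5 LKO libraries lay above the control mean. Clec4f and Timd4 were level or lower (-0.03 and -0.23), whereas Cd5l and Vsig4, also genes of mature Kupffer cells, were higher (0.49 and 0.26). Marco had the largest difference (1.11) and the widest scatter. With all 10 libraries, 0 of the 10 genes had an adjusted p under 0.05 in edgeR's quasi-likelihood test with Benjamini-Hochberg adjustment over 15226 genes, a threshold that 0.0657% of all genes passed. At an unadjusted p under 0.05, 6 of 10 were higher and 0 lower, against 12.8% of all genes higher and 9.5% lower. Only C1qb had groups that did not overlap, a state that 1.72% of all genes showed with LKO higher and 2.23% with LKO lower. The median log2 fold change was 0.56 for the 10 genes and -0.00 for all genes tested.

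**Figure D1:**
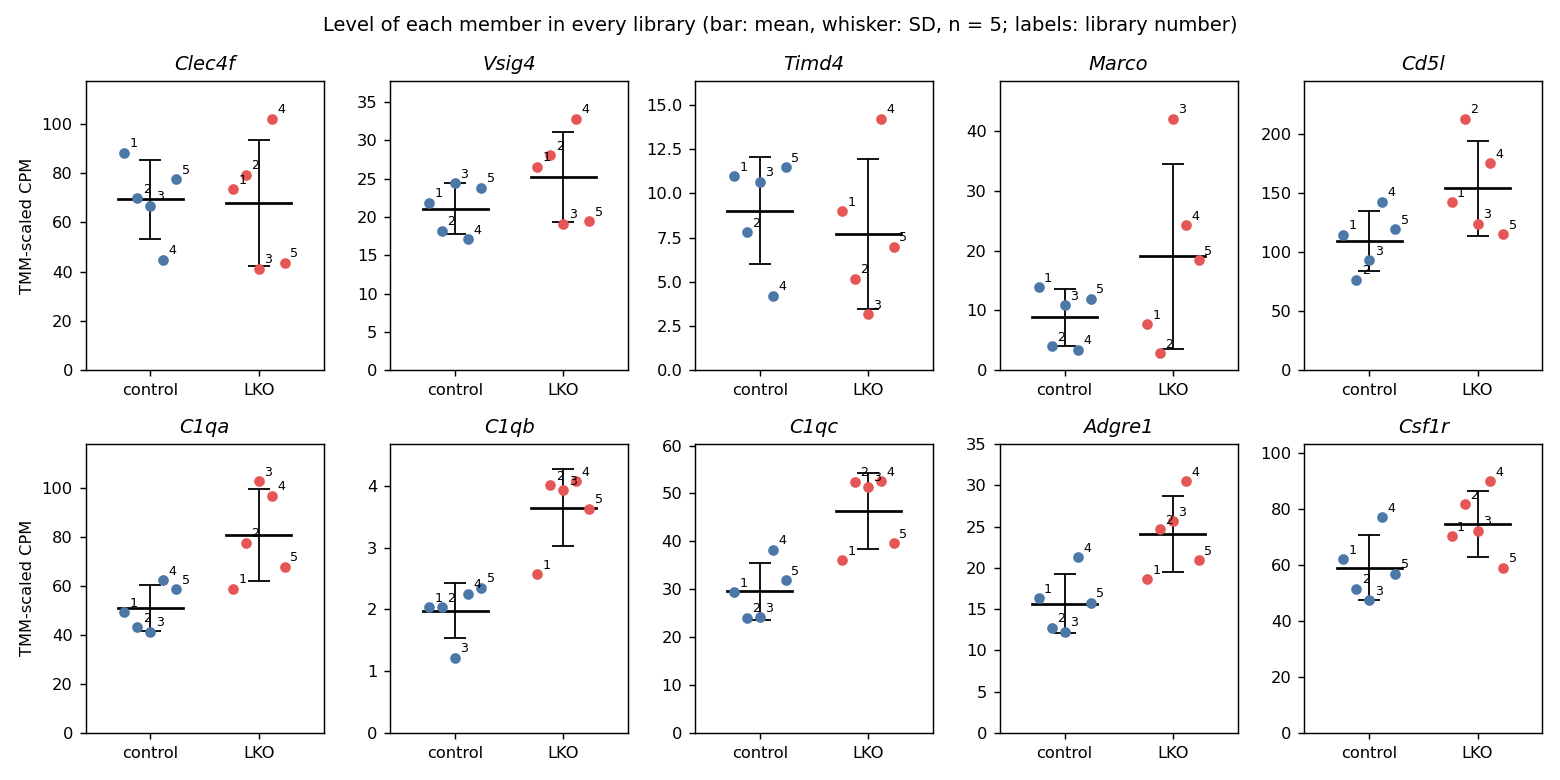
TMM-scaled CPM (y axis) of each gene in the 5 control (blue) and 5 LKO (red) libraries, numbered by library, with the mean as a bar and the SD as a whisker. C1qb is the only panel without overlap, and control 4 is the highest control for C1qa, C1qc, Adgre1, Csf1r and Cd5l but the lowest for Clec4f, Vsig4, Timd4 and Marco.

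C1qa, which encodes the A chain (NCBI Gene 12259), was measured at 49.1, 43.1, 41.3, 62.4 and 58.6 CPM in controls 1 to 5 and at 58.8, 77.6, 103, 96.7 and 67.8 CPM in LKO 1 to 5. LKO 3 and LKO 4 were far above every control, and LKO 1 fell inside the control range. The means were 50.9 ± 9.33 and 80.7 ± 18.6 CPM (SD, n = 5), which is 1.58-fold, with a log2 fold change of 0.66 (SE 0.17; edgeR, Benjamini-Hochberg adjusted p = 0.103).

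C1qb, for the B chain (NCBI Gene 12260), had 2.04, 2.04, 1.21, 2.26 and 2.35 CPM in the controls and 2.58, 4.01, 3.93, 4.07 and 3.63 CPM in LKO. Every LKO library was above every control, LKO 1 by the least, and control 3 stood below the other controls. The means of 1.98 ± 0.449 and 3.65 ± 0.622 CPM (SD, n = 5) are 1.84-fold apart, with a log2 fold change of 0.88 (SE 0.20; edgeR adjusted p = 0.094). These levels rest on 36 to 160 counts per library, the fewest among the 10 genes.

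C1qc, for the C chain (NCBI Gene 12262), stood at 29.4, 24.02, 24.2, 38.3 and 31.8 CPM in the controls and at 36.1, 52.5, 51.4, 52.5 and 39.6 CPM in LKO. LKO 1 lay below control 4, and the other LKO libraries were above all controls. The log2 fold change was 0.65 (SE 0.15; edgeR adjusted p = 0.0977), from means of 29.5 ± 5.94 and 46.4 ± 7.94 CPM (SD, n = 5).

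Adgre1 encodes F4/80, the adhesion receptor by which mouse macrophages are commonly identified (NCBI Gene 13733). It was measured at 16.3, 12.7, 12.3, 21.3 and 15.8 CPM in the controls and 18.6, 24.7, 25.7, 30.5 and 20.9 CPM in LKO. LKO 1 and LKO 5 lay just below control 4, so the groups overlapped through that 1 control. Means of 15.7 ± 3.60 and 24.1 ± 4.58 CPM (SD, n = 5) gave a log2 fold change of 0.62 (SE 0.17; edgeR adjusted p = 0.110).

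Csf1r, the CSF1 and IL-34 receptor on which macrophage survival depends (NCBI Gene 12978), had 61.9, 51.5, 47.3, 77.0 and 56.8 CPM in the controls and 70.1, 81.6, 72.1, 89.7 and 58.9 CPM in LKO. LKO 4 was the highest library and control 4 the third highest, and LKO 5 stood at the control mean. Its log2 fold change of 0.34 (SE 0.15; edgeR adjusted p = 0.205) was the smallest of the 6, with means of 58.9 ± 11.5 and 74.5 ± 11.7 CPM (SD, n = 5).

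Cd5l (NCBI Gene 11801) was found at 115, 76.8, 93.3, 143 and 119 CPM in the controls and at 142, 213, 124, 175 and 115 CPM in LKO. LKO 2 and LKO 4 exceeded every control, whereas LKO 5 was level with control 1. From means of 109 ± 25.3 and 154 ± 40.3 CPM (SD, n = 5) the log2 fold change was 0.49 (SE 0.20; edgeR adjusted p = 0.186).

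Vsig4, the complement receptor CRIg that binds C3 fragments on Kupffer cells (NCBI Gene 278180), stood at 21.9, 18.2, 24.4, 17.1 and 23.8 CPM in the controls and 26.6, 28.05, 19.1, 32.8 and 19.4 CPM in LKO. LKO 1, 2 and 4 were above all controls, while LKO 3 and LKO 5 were among the low libraries. The means were 21.1 ± 3.30 and 25.2 ± 5.88 CPM (SD, n = 5), and the log2 fold change was 0.26 (SE 0.16; edgeR adjusted p = 0.365).

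Clec4f, a galactose-binding lectin used as the defining marker of mouse Kupffer cells (NCBI Gene 51811), had 88.2, 69.9, 66.7, 44.9 and 77.5 CPM in the controls and 73.4, 79.4, 41.3, 102 and 43.7 CPM in LKO. Control 4, LKO 3 and LKO 5 were the 3 lowest of the 10 libraries, LKO 4 was the highest, and the groups overlapped throughout. The means of 69.4 ± 16.0 and 67.9 ± 25.6 CPM (SD, n = 5) gave a log2 fold change of -0.03 (SE 0.26; edgeR adjusted p = 0.952).

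Timd4, the phosphatidylserine receptor TIM-4 for uptake of dying cells (NCBI Gene 276891), had 10.99, 7.80, 10.7, 4.22 and 11.5 CPM in the controls and 8.98, 5.19, 3.16, 14.2 and 6.999 CPM in LKO. Its 3 lowest libraries were LKO 3, control 4 and LKO 2, and LKO 4 was again highest, so the groups overlapped throughout. The log2 fold change was -0.23 (SE 0.37; edgeR adjusted p = 0.736), with means of 9.03 ± 3.05 and 7.71 ± 4.23 CPM (SD, n = 5).

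Marco, a scavenger receptor for bacteria and particles (NCBI Gene 17167), varied more than any other of the 10 genes, by 14.8-fold between its lowest and highest library. The controls held 13.9, 4.04, 10.9, 3.45 and 12.0 CPM and the LKO libraries 7.66, 2.84, 42.0, 24.2 and 18.4 CPM. LKO 2 was the lowest and LKO 3 the highest of all, and only the A67 libraries exceeded every control. The means were 8.84 ± 4.78 and 19.0 ± 15.4 CPM (SD, n = 5), with a log2 fold change of 1.11 (SE 0.62; edgeR adjusted p = 0.305). That fold change ran from 0.58 (without LKO 3) to 1.38 (without LKO 2) with 1 library left out. It was 0.38 without control 4 and LKO 3 and 0.089 with limma voom with quality weights. Between the A54 libraries alone, 1 control and 2 LKO, the log2 difference was -1.3996.

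**Figure D2:**
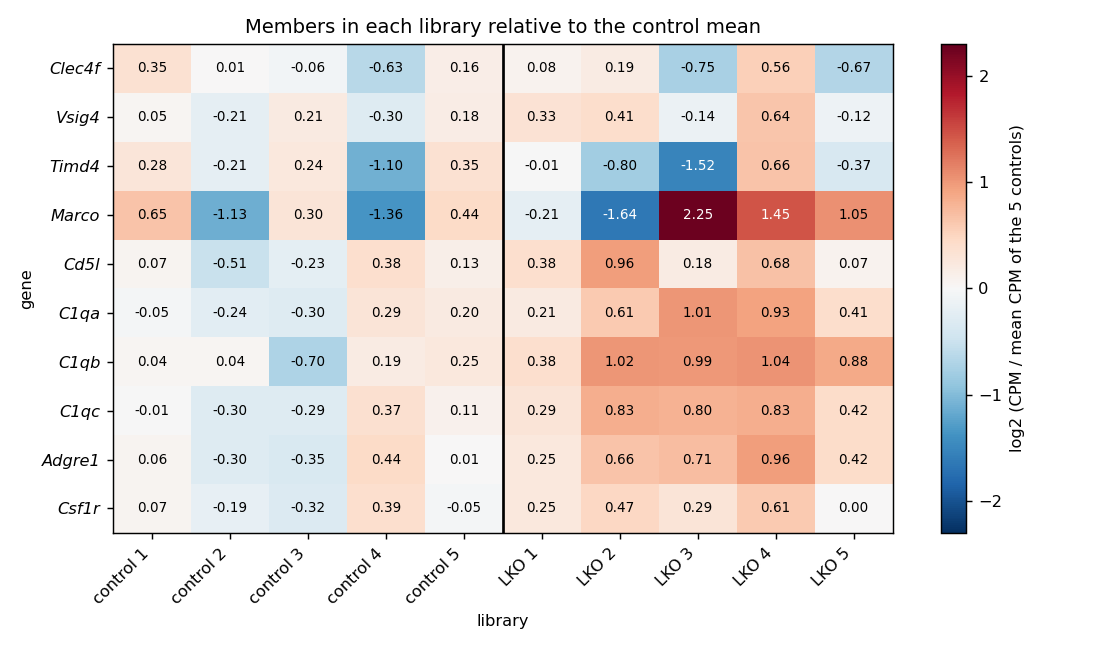
Each gene (rows) in each library (columns) as the log2 ratio of its CPM to the mean of the 5 controls, with red above and blue below that mean. The C1q genes, Adgre1 and Csf1r are at or above the control mean in all 5 LKO libraries, whereas Clec4f and Timd4 are lowest in LKO 3 and Marco is highest there at 2.25.

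C1qa, C1qc and Adgre1 moved together from library to library more tightly than any other of the 10 genes. The SD of the log2 ratio over the 10 libraries was 0.091 between C1qc and Adgre1, 0.1203 between C1qa and C1qc and 0.136 between C1qa and Adgre1. Clec4f and Vsig4 followed each other less closely (0.294), as did Clec4f and Timd4 (0.445). Marco followed none of the 9 others, with SDs of 1.14 to 1.401. All of these ratios share the libraries and, through them, the genotype and the liver's cell makeup, so they are given as a description.

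Relative to Adgre1 in the same library, with both genes per kilobase of transcript, Clec4f stood at 7.09, 7.18, 7.12, 2.76 and 6.45 in the controls and at 5.17, 4.21, 2.11, 4.39 and 2.74 in LKO. All 5 LKO ratios were below those of 4 controls, and control 4 alone lay in the LKO range. Timd4 over Adgre1 had the same order of groups, at 1.004, 0.911, 1.29, 0.296 and 1.09 in the controls against 0.720, 0.313, 0.183, 0.696 and 0.499 in LKO. Again control 4 was the 1 control among the LKO values. By contrast, C1qc over Adgre1 was 5.10 ± 0.267 in control and 5.21 ± 0.395 in LKO, and C1qa over Adgre1 was 10.2 ± 0.991 and 10.4 ± 1.14 (SD, n = 5). Csf1r over Adgre1 was 3.17 ± 0.149 in control and 2.62 ± 0.343 in LKO, with ranges of 3.02 to 3.38 and 2.35 to 3.15 that overlapped. Cd5l over Adgre1 was 11.1 ± 1.05 and 10.3 ± 2.54, and Vsig4 over Adgre1 was 3.20 ± 0.959 and 2.40 ± 0.575. These ratios were formed after the levels were seen and carry no test. In bulk RNA, fewer cells of a type and less RNA of that gene per cell cannot be told apart, for these ratios and for every level given here.

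**Figure D3:**
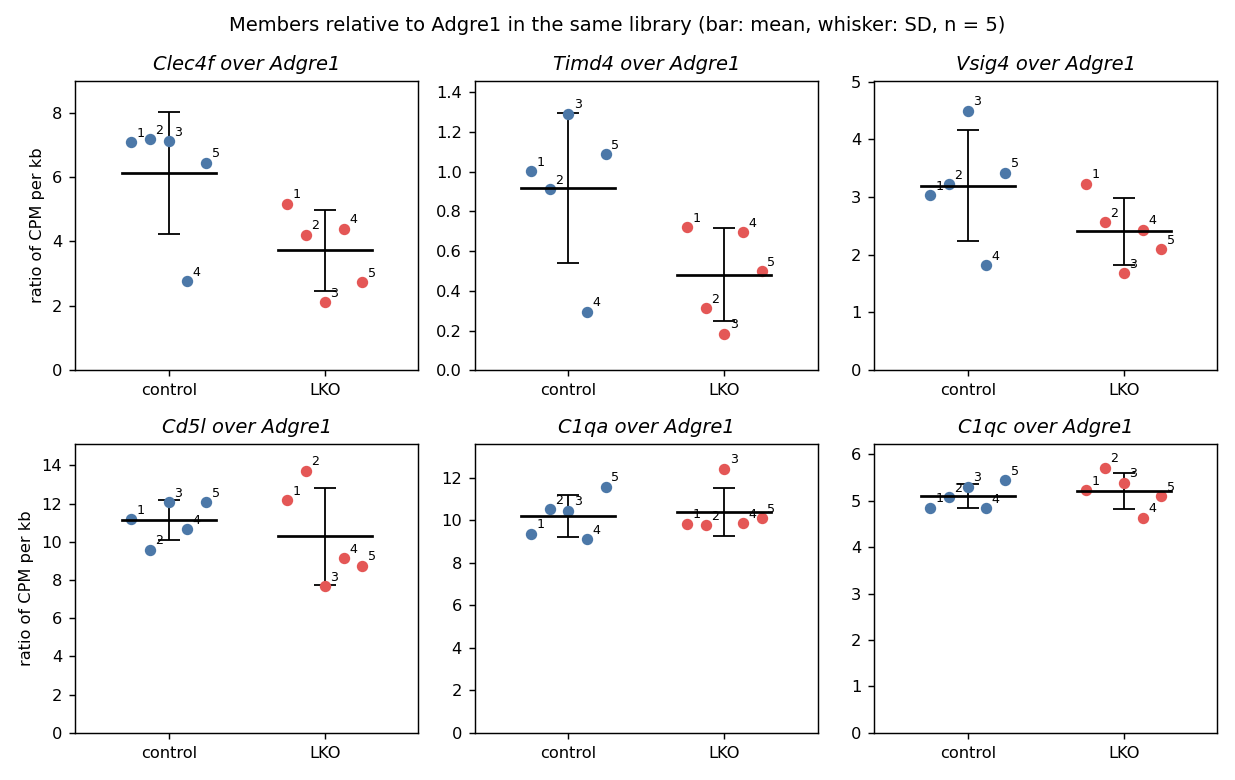
Ratio of each gene to Adgre1 in the same library, both as CPM per kilobase (y axis), in 5 control (blue) and 5 LKO (red) libraries numbered by library, with mean and SD. Clec4f and Timd4 over Adgre1 are lower in all LKO libraries than in every control but control 4, while C1qa and C1qc over Adgre1 are level between the groups.

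For each of the 10, the genes with the steadiest ratio to it were sought among 12952 genes with a mean of at least 1 CPM. For C1qa they were Fcgr4 (SD of the log2 ratio 0.095), an activating IgG receptor, then C1qc and Adgre1. For C1qc they were Adgre1, Lgmn (0.111), a lysosomal protease, and C1qa, and for Adgre1 they were C1qc, C1qa and Slc11a1 (0.141), a phagosomal metal transporter. For Cd5l they were Clec1b (0.160), a C-type lectin of Kupffer cells, Cd300ld (0.187) and Csf1r (0.207), and for Csf1r they were Ccdc148 (0.136), Adgre5 (0.141) and Psap (0.150). Vsig4 was closest to Mrc1 (0.110), the mannose receptor, Adgrl4 (0.125), an endothelial adhesion receptor, and Ptgs1 (0.142). Closest to Clec4f were Gsto1 (0.187), Atp5k (0.190) and Chchd7 (0.191), and closest to Timd4 were Asic5 (0.298), Adtrp (0.333) and Ly6g2 (0.336). C1qb was nearest to H2bc11 (0.165), Hilpda (0.171) and H2bc23 (0.196), with C1qc at place 12 and C1qa at place 16. Marco had no close match, the steadiest being Col6a6 (0.625), 9130208D14Rik (0.842) and Marveld3 (0.855).

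Per kilobase of transcript, control levels ran from Cd5l at 53.7 ± 12.4 CPM per kb and C1qa at 48.9 ± 8.98 through Clec4f at 28.1 ± 6.49 and C1qc at 24.6 ± 4.94 to Csf1r at 15.2 ± 2.98 and Vsig4 at 14.7 ± 2.31 (SD, n = 5). Adgre1 at 4.84 ± 1.11, Marco at 4.59 ± 2.48 and Timd4 at 4.16 ± 1.403 followed, and C1qb was last at 1.82 ± 0.413. The control ranges met that of the next higher gene for all but Clec4f, Csf1r and Adgre1, so Cd5l and C1qa, Clec4f and C1qc, Csf1r and Vsig4, and each gene and its neighbour among the last 4 could not be ordered beyond their spread. In LKO the mean of C1qa (77.6) was next to that of Cd5l (75.6), and C1qc (38.6) stood above Clec4f (27.5).

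The 3 C1q chains assemble in equal numbers, yet their RNA levels per kilobase were not equal in these counts. C1qa over C1qc was 1.999 ± 0.102 in control and 2.002 ± 0.228 in LKO (SD, n = 5), and stayed between 1.71 and 2.31 in all 10 libraries. C1qa over C1qb was far larger, at 27.6 ± 5.07 in control and 23.1 ± 3.25 in LKO, with a range of 19.5 to 35.5. The counting tool and its handling of reads that fit more than 1 gene model are not stated in any source at hand, so the absolute level of C1qb is uncertain.

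C1qa, C1qc and C1qb are next to each other in RefSeq order, with Ephb2 beyond C1qb and Epha8 beyond C1qa. Epha8 was near 0, at 0.0275 ± 0.0376 CPM in control. Ephb2, an ephrin receptor, had means of 9.14 ± 9.52 and 33.4 ± 14.6 CPM in control and LKO (SD, n = 5; edgeR adjusted p = 0.138), with control 4 the highest control at 25.3 CPM. Clec4f neighbours Cd207, the lectin langerin, which had 2.60 ± 2.73 and 5.39 ± 1.51 CPM. Timd4 neighbours Havcr1, which encodes the related receptor TIM-1 and stood at 0.103 ± 0.0823 and 0.121 ± 0.0566 CPM, too low to be tested.

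Other Kupffer cell genes differed in both directions. The C1q block was grouped by its values, so its shared direction is no measure to set this list against. Of 14 on the list, 7 were higher and 7 lower in LKO, 1 and 2 of them at an unadjusted p under 0.05, 0 with an adjusted p under 0.05, and their median log2 fold change was 0.12. Scaling to total counts gave 11 higher and 3 lower, with a median of 0.34 against 0.235 for all genes. Spic, a factor of iron-recycling macrophages, stood at 2.05 ± 0.475 and 2.85 ± 0.647 CPM (0.48 on the log2 scale), and Mrc1 at 78.2 ± 7.43 and 92.8 ± 16.8 CPM (0.25). C6, a complement protein that mouse Kupffer cells and hepatocytes both express, stood at 218 ± 34.5 and 147 ± 23.4 CPM (-0.56; edgeR adjusted p = 0.0999), and Slc40a1, the iron exporter ferroportin, differed by -0.26. Cd163, the haemoglobin scavenger receptor, was named after its values were seen, at 32.1, 27.9, 32.4, 7.87 and 39.1 CPM in the controls and 21.1, 11.1, 2.3002, 30.6 and 5.21 CPM in LKO. Its lowest libraries, LKO 3, LKO 5 and control 4, were the 3 lowest for Clec4f as well, and the log2 difference of -0.99 had an edgeR adjusted p of 0.344.

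Around Csf1r, the ligand Csf1 was at 17.4 ± 4.01 CPM in control and 21.2 ± 3.21 CPM in LKO (0.29 on the log2 scale), and Il34 was at 1.31 ± 0.518 and 1.52 ± 0.27 CPM (0.21), with overlapping groups in both cases. Of the 9 ligands, related receptors and macrophage transcription factors, 8 were higher in LKO, 4 of them at an unadjusted p under 0.05, with 0 of the 9 at an adjusted p under 0.05 and a median log2 value of 0.34. Spi1, which encodes PU.1, was at 6.51 ± 2.66 and 11.1 ± 1.37 CPM (0.77; edgeR adjusted p = 0.12), and Irf8 was higher by 0.66.

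Most of the other complement genes of activation and of the terminal steps, not all of them downstream of C1q, stood lower in LKO. C1q itself stood higher. Of 15 genes of complement activation, 2 were higher and 13 lower, 1 and 4 at an unadjusted p under 0.05, and their median log2 fold change was -0.33 (3 and 12, with -0.10, under total counts). C1s1, a serine protease of the classical pathway, had control and LKO means of 466 ± 32.5 and 377 ± 38.8 CPM (-0.31). Masp1, a serine protease of the lectin pathway, had 85.7 ± 8.15 and 57.9 ± 12.0 CPM (-0.56), and both were without overlap. The higher ones were the collectin Colec11 (0.27) and properdin, Cfp (0.37), which myeloid cells make. Of the 7 terminal genes, 1 was higher and 6 lower, 1 and 5 at an unadjusted p under 0.05, with a median of -0.74. C8a and C8b, chains of the membrane attack complex, stood at 1039 ± 325 and 507 ± 73.1 CPM and at 298 ± 121 and 111 ± 26.6 CPM, with no overlap and edgeR adjusted p of 0.0766 and 0.0809. The 1 that was higher, C7, differed by 1.41 through LKO 3, which held 8.34 CPM against 0.874 to 3.02 CPM in the other LKO libraries and 0.675 to 1.68 CPM in the controls, and the difference was 0.46 without LKO 3 and 0.59 with voom.

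Among 18 regulators and receptors of complement, 9 were higher and 9 lower, 5 and 7 at an unadjusted p under 0.05, with a median of -0.13 that became 0.10 under total counts. The anaphylatoxin receptor C5ar1 was at 1.35 ± 0.636 CPM in control and 3.65 ± 1.49 CPM in LKO (1.43 on the log2 scale), and Cd93, a receptor first described as binding C1q, was higher by 0.90. The plasma proteins C4bp and vitronectin, Vtn, were lower by 0.40 and 0.54 as log2 values. In these 3 complement lists 0 genes had an adjusted p under 0.05.

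Genes for clearance of dying cells and scavenging, the task that Timd4 and Marco serve, were higher in 15 of 17 tested cases and lower in 2, with 6 and 0 at an unadjusted p under 0.05 and a median log2 fold change of 0.35. The scavenger receptor Msr1 stood at 17.6 ± 3.01 CPM in control and 27.8 ± 4.93 CPM in LKO (0.66; edgeR adjusted p = 0.0894), and the fatty acid transporter Cd36 was higher by 0.71, both without overlap. The 2 lower ones, Colec12 at -0.20 and Scarb1 at -0.03, turned to 0.035 and 0.20 under scaling to total counts. The 9 relatives of Adgre1 and Clec4f were all higher, 6 at an unadjusted p under 0.05, with a median of 0.74. Clec4a1 had 1.31 ± 0.208 and 2.18 ± 0.132 CPM (0.74; edgeR adjusted p = 0.0868), and Clec4n, which encodes dectin-2, was higher by 0.75, in both cases with no overlap. In these lists, too, 0 genes had an adjusted p under 0.05.

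General macrophage genes, which do not tell Kupffer cells from other macrophages, and genes of recruited macrophages were higher in LKO together with the C1q block. The 12 general macrophage genes were all higher in LKO, 9 at an unadjusted p under 0.05, with a median of 0.76, and their summed level was 265, 238, 241, 538 and 278 CPM in controls 1 to 5 and 377, 507, 762, 535 and 448 CPM in LKO 1 to 5. Control 4 stood inside the LKO range, as it did for C1qa, C1qc and Adgre1. Tyrobp, the signalling adaptor of myeloid receptors, was higher by 0.89, and Lyz2, lysozyme, by 1.32. All 11 tested genes of recruited, monocyte-derived macrophages were higher, 3 at an unadjusted p under 0.05, with a median of 1.23 and sums of 59.1, 57.2, 79.9, 400 and 103 CPM in control against 153, 282, 751, 186 and 409 CPM in LKO. Spp1, which the cholangiocyte list also holds, made up 316 CPM of the sum in LKO 3, 190 CPM in LKO 5 and 145 CPM in control 4. Without Spp1, a choice made after seeing the data, the sums were 44.5, 39.0, 55.5, 256 and 75.7 CPM in control and 132, 236, 435, 148 and 218 CPM in LKO. LKO 3 and control 4, both among the 3 lowest libraries for Clec4f, had the 2 highest of these sums, and LKO 2 came next, ahead of LKO 5. The part of such cells in the levels of the 10 genes was not tested.

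Markers of other liver cells differed as well. The 8 hepatocyte genes were all lower (6 of 8 under total counts), 2 at an unadjusted p under 0.05, with a median of -0.48, with sums of 42150 to 69706 CPM in control, lowest in control 4, and 35669 to 54046 CPM in LKO. Of 10 sinusoidal endothelial genes 9 were higher and 1 lower (10 and 0 under total counts), 6 and 0 at an unadjusted p under 0.05, with a median of 0.29. Their sums were 414 to 501 CPM in control and 405 to 662 CPM in LKO, highest in LKO 4. LKO 4 was also the highest library for Clec4f, Vsig4, Timd4, C1qb, C1qc, Adgre1 and Csf1r. Stellate (9 of 9), cholangiocyte (5 of 5), neutrophil (4 of 4 tested) and dendritic (7 of 7) genes were all higher, with medians of 0.70, 1.44, 1.69 and 0.38. The cholangiocyte sum was 23.3, 26.2, 29.9, 157 and 32.3 CPM in controls 1 to 5 and 28.04, 51.8, 361, 43.7 and 215 CPM in LKO 1 to 5, so control 4, LKO 3 and LKO 5 stood apart. Stellate sums ran from 391 to 849 CPM in control and 554 to 1191 CPM in LKO, neutrophil sums from 3.33 to 8.58 and 6.59 to 12.01 CPM, and dendritic sums from 12.5 to 23.2 and 16.6 to 22.9 CPM. In all 4 lists control 4 was the highest control and LKO 3 the highest LKO library. T and NK cell genes were higher in 5 of 6 and B and plasma cell genes in 3 of 4, or 4 of 4 under total counts, with medians of 0.63 and 0.41. Their sums ran from 2.63 to 6.13 CPM in control and 3.06 to 7.302 CPM in LKO, and from 1.75 to 2.97 and 2.09 to 3.69 CPM. None of these genes had an adjusted p under 0.05 in edgeR, while 4, 3, 4 and 0 of the stellate, cholangiocyte, neutrophil and dendritic genes were higher at an unadjusted p under 0.05. The part of these shifts in the values of the 10 genes was not tested.

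**Figure D4:**
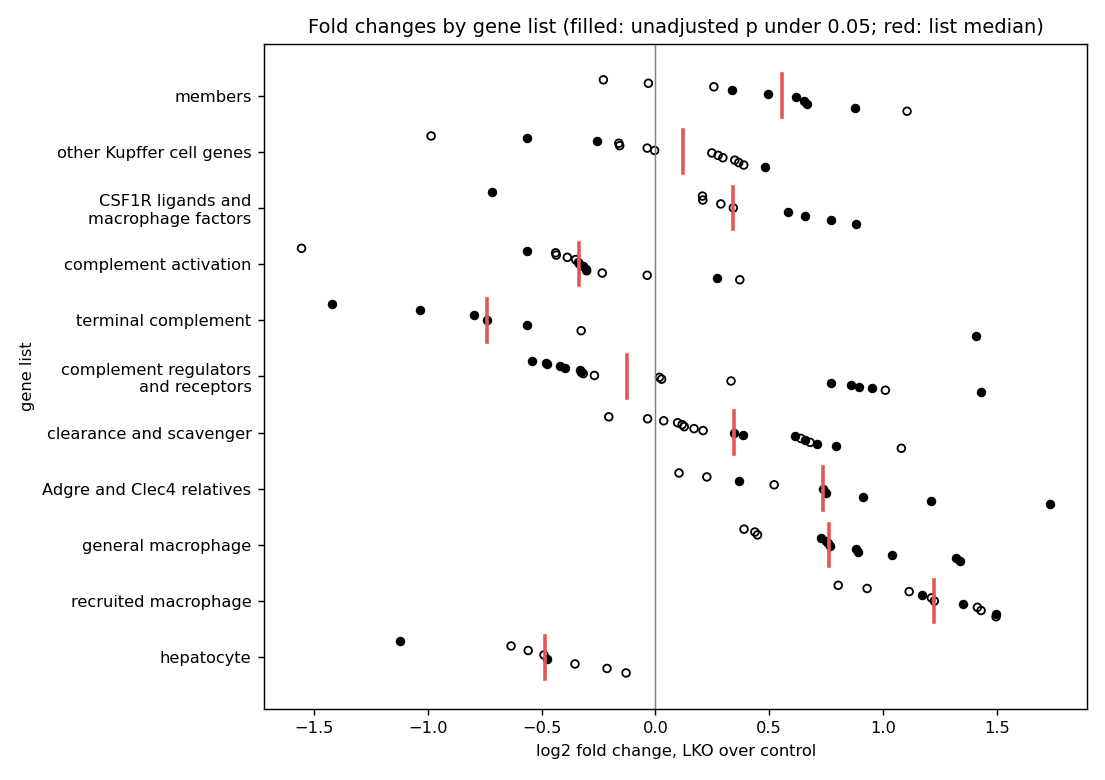
Log2 fold change of LKO over control (x axis) for each tested gene of the 10 described here and of 10 lists (y axis), filled where the unadjusted p was under 0.05, with the list median as a red line. The 10 genes have a median of 0.56, between other Kupffer cell genes at 0.12 and general macrophage genes at 0.76, and terminal complement lies lowest at -0.74.

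The calls for the C1q block, like those over all genes, depended on the test used and on control 4. Without it, 5 of the 10 genes had an adjusted p under 0.05 in edgeR with Benjamini-Hochberg adjustment: C1qa at 0.0205, C1qb at 0.021, C1qc at 0.0109, Adgre1 at 0.0132 and Csf1r at 0.0391, with log2 fold changes of 0.75, 0.93, 0.76, 0.75 and 0.45. That setting called 10.2% of all genes as higher. C1qa, C1qb, C1qc and Adgre1 then had no overlap between groups, but the share of all genes without overlap was not counted in that setting. DESeq2 on all 10 libraries called 4 of the 10, the C1q genes and Adgre1, beside 4.16% of all genes, and limma voom with quality weights called 6, with Cd5l and Csf1r added, beside 10.05%. Leaving out any 1 of the other 9 libraries called 0 of the 10 in edgeR, with 4 to 6 higher at an unadjusted p under 0.05. The share of all genes at that p was not counted in these settings. With control 4 and LKO 4 both left out, 4 were called (9.31% of all genes were higher), and Timd4 was lower at an unadjusted p under 0.05, as were 13.6% of all genes. With control 4 and LKO 3 both left out, 6 were called, with 9.87% of all genes higher.

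With the title code as a covariate the genotype term rests on the A54 libraries alone, 1 control against 2 LKO, because A55 and A67 each hold 1 group, and its spread is taken from all libraries. In that fit, 0 of the 10 genes reached even an unadjusted p under 0.05, which 3.09% of all genes did as higher, and Marco turned from 1.11 to -1.41. With a control arm of 1 library, assumed to vary like the others, this does not show that the differences are absent. Within A54, the 1 control and the 2 LKO libraries differed by 0.47, 0.69 and 0.59 for C1qa, C1qb and C1qc, by 0.41 for Adgre1, by 0.63 for Cd5l and by 0.29 for Csf1r on the log2 scale. Clec4f (-0.21), Timd4 (-0.63) and Vsig4 (0.32) kept the sign they had over all libraries. The A54 libraries by themselves carry no test. Scaling to total counts moved the median of all genes to 0.235 and that of Clec4f to 0.20, while Timd4 stood at -0.00, Vsig4 at 0.49 and Marco at 1.47, so Clec4f and Timd4 remained below the median gene.

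**Figure D5:**
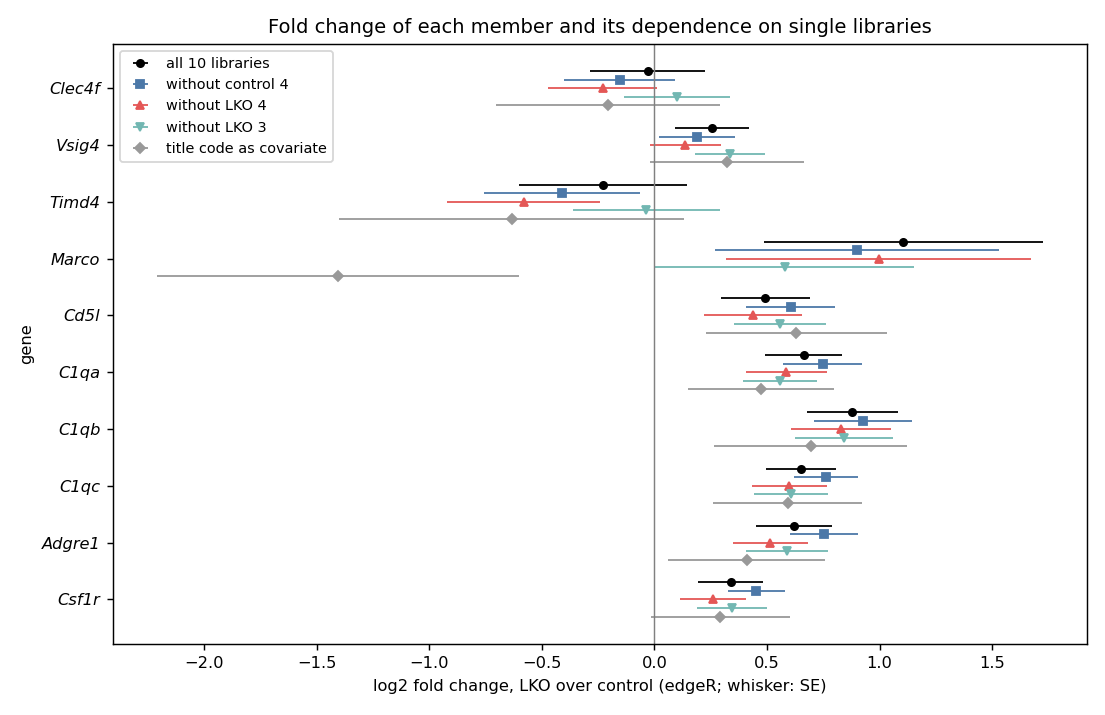
Log2 fold change with its SE (x axis; edgeR) for each of the 10 genes (y axis) with all libraries, without control 4, LKO 4 or LKO 3, and with the title code as a covariate. The C1q genes, Adgre1, Cd5l and Csf1r stay above 0 in all 5 settings, Clec4f changes sign without LKO 3, and Marco reaches -1.41 with the title code.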

How the data were processed

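Liver RNA from 10 mice was sequenced in bulk. Frozen tissue was the source, ribosomal RNA was depleted and stranded libraries were read from 1 end on a single NovaSeq lane, per the labels' protocols. The authors deposited whole-number counts per gene, not normalized, named by NCBI Gene number. Of the processing, bcl2fastq 2.20, DESeq2 and build GRCm39 are named in the submitters' processing notes, and the aligner and counter are not stated. P-values measure only the spread between these samples. All 10 columns were matched by name. RefSeq (GRCm38.p6) named 25275 of 27179 genes, and the unnamed ones, with 0.693% of counts, were tested as well.

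Genes were filtered with filterByExpr, scaled by TMM and tested with genotype as the only term, two-sided, in edgeR 4.0.16 (quasi-likelihood F test, R 4.3.3), with Benjamini-Hochberg adjustment over 15226 genes and a threshold of 0.05. SEs were derived from the fold change and F. Levels per kilobase used the longest RefSeq-matched transcript of GENCODE. A count of 3 equals 0.0698 to 0.113 CPM, which covers counting error only. No replicates agreed within sampling noise (lowest chi-square per degree of freedom 32.1). The tests were checked on simulated counts of 15074 genes. Of 99 genes changed 2-fold, edgeR recovered 59, DESeq2 70 and voom 62. Of 100 changed 4-fold they recovered 93, 92 and 89. False calls numbered 6 with edgeR, 44 with DESeq2 and 9 with voom, so DESeq2 was the least strict there. The simulated counts were drawn gene by gene, without shifts shared by a whole library. They therefore do not rank how strict the calls given here are.

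Replicate numbers did not pair the samples: the same-number correlations of deviations from the group means ran from -0.399 to 0.419, with 2 of 5 over 0.1. Alternatives were other scalings, filters, dispersions, DESeq2 1.42.0, limma 3.58.1 voom with quality weights, a replicate block, the title code and each library left out. Leaving out control 4 with LKO 4 or with LKO 3 was added after seeing the data. The 10 genes and the lists were chosen with earlier results of these data known. Named were the 10 genes, Csf1 and Il34, the 2 genes per direction with the smallest p of each pathway and macrophage list, and the 3 genes with the steadiest ratio to each of the 10, except where stated. Lists of other cell types are given as counts, medians and sums. A gene of the lists is not reported here.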

Additional observations from a re-analysis of the deposited data

Results flagged for a closer look

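In C1qb, control 3 stood apart from the other 4 controls, at 1.21 CPM, below the next lowest at 2.04 CPM. Its gap to the nearest control made up 0.724 of the control range, above the critical value of 0.71 of Dixon's test for 5 samples. The 10 genes in 2 groups gave 20 such checks, and chance alone passes about 1 in 20. The log2 fold change of C1qb was 0.74 without control 3.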

How the results depend on the processing

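The direction of C1qa, C1qb, C1qc, Adgre1, Csf1r, Cd5l, Vsig4 and Timd4 was kept in every alternative run, whereas the number of calls was not. Over all genes, edgeR called 10, and 31 with no filter on low counts, 20 with a filter of 1 CPM in 5 libraries, 0 with the title code, 1186 with DESeq2, 2460 with voom, and 2 to 2296 with 1 library left out (2296 without control 4, 86 without LKO 1). Without control 4 and LKO 4 it was 1992, and without control 4 and LKO 3 it was 2363. Of the 10 genes described, 0 were called in the main analysis, 4 with DESeq2, 6 with voom, 0 to 5 with 1 library left out, 4 without control 4 and LKO 4, and 6 without control 4 and LKO 3. At an unadjusted p under 0.05, 6 were higher, and 0 with the title code, and 1 (Timd4) was lower without control 4 and LKO 4. Groups did not overlap for 1 gene, and for 1 to 4 with 1 library left out, 4 without control 4 and 3 without LKO 1. With a library left out, the share of all genes without overlap was not counted.

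Clec4f, at -0.03, turned to 0.20 with total counts and ran from -0.23 to 0.10 with 1 library left out, above 0 without control 1, control 5, LKO 3 or LKO 5. Marco turned to -1.41 with the title code and -1.40 in the A54 libraries alone, Spic to -0.15 with the title code, and Colec12 to 0.035 with total counts. Scarb1 turned to 0.20 with total counts, 0.0085 with voom and 0.0098 without control 4 and LKO 3, and ran from -0.090 to 0.041 with 1 library left out, above 0 without control 1, control 3 or LKO 3. The causes were not tested. Of 230 values of the 10 genes under alternatives, 198 kept their direction and, where tested, their side of the threshold. Another 25 newly passed it, and 7 turned, with the untested value of Marco in the A54 libraries among them. The A54 values of the other genes carry no test either and were judged by direction alone. Of 660 for the 30 named list genes, 551 were kept, 101 newly passed and 8 turned.

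With the replicate number as a block, 2 genes were called over all and 0 of the 10. Of the 10, 5 were higher at an unadjusted p under 0.05, and the share of all genes at that p was not counted. The shared numbers did not pair the samples, and 2 of 10 libraries correlated best with their own number. Depth limits C1qb most, with 36 counts in its lowest library.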
